A study of Homo sapiens with 6 samples.

Results

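The genes described here encode the proteins of blood clotting, of its inhibitors, of fibrinolysis and of the complement system. A list of 45 such genes was taken, and a gene counted as a member when its symbol was in the gene symbol column of the per-sample expression files. Of the 45 genes, 34 were found among the 16305 different genes of these files. The other 11, F9, F11, F12, KLKB1, SERPINC1, PLG, MASP2, C8A, C8B, C9 and THBD, were not found under their symbols and were not analysed here. The files hold genes that passed the authors' filter on low read counts (at least 5 reads in at least 2 of 3 samples of either group), so each statement below covers genes that passed it.

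RNA was sequenced from Huh7-R cells, named Huh7SR in the sample labels, which are a pool of cells selected from the human hepatocellular carcinoma line Huh7 by long exposure to sorafenib. The 3 samples of the first group received the solvent DMSO and the 3 samples of the second group fostamatinib, an inhibitor of spleen tyrosine kinase, for 24 h in both groups. The paper did not detect the protein of this kinase in Huh7 cells. It reports less phosphorylation of ERK, AKT, STAT3, EGFR and JNK with fostamatinib, at a higher dose and a shorter time. The labels give 2 µM as the dose for either treatment. Per the methods, resistant Huh7 cells were kept in sorafenib and taken off it some days before experiments, which applies to both groups. Results therefore concern 1 resistant pool of 1 cell line, and no untreated parental Huh7 cells were analysed here. The labels say that treatments were applied in triplicate, without naming separate passages or days, so the spread between these samples may be technical. The limma p-values rest on this spread and, more heavily, on the spread of other genes at similar levels.

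Most plasma proteins of clotting and complement are made by hepatocytes and secreted. Clotting runs as a cascade of serine proteases that begins when tissue factor (F3) on a cell surface binds factor VII and ends when thrombin (F2) cuts fibrinogen, and antithrombin, protein C, protein S and TFPI restrain it. Complement is a second cascade, started by antibody-bound C1, by mannose-binding lectin or by the alternative pathway. It passes through C3 and C5 to the membrane attack complex, and regulators such as CD46, CD55 and CD59 protect the cell's own surface.

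The 4 promoters below belong to F3, the member with the largest fall, F10, the clotting factor with the largest rise, and the neighbours C4BPB and C4BPA. The log2 fold changes of these neighbours had opposite signs, but C4BPA did not pass the test used below when some single samples were left out. Each promoter is the RefSeq window of build GRCh38.p14 from 250 bases before the start site to 50 bases from it, written on the gene's strand. F3 is at chr1:94541710-94542009 on the - strand, F10 at chr13:113122549-113122848 on the + strand, C4BPB at chr1:207088610-207088909 on the + strand and C4BPA at chr1:207103983-207104282 on the + strand. Capitals mark every match, on either strand, to the motifs listed after the sequences.
F3: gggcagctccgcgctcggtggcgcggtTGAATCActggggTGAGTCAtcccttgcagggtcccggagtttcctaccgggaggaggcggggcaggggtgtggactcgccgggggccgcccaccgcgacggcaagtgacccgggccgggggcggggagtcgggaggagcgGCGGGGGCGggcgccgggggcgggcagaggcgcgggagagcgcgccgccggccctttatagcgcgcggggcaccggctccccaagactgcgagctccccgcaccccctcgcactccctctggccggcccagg
F10: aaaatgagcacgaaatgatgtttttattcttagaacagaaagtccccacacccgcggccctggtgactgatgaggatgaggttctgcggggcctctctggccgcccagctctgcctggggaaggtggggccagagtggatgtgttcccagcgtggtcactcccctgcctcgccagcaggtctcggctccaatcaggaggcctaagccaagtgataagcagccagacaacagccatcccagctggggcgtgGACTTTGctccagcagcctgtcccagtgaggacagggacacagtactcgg
C4BPB: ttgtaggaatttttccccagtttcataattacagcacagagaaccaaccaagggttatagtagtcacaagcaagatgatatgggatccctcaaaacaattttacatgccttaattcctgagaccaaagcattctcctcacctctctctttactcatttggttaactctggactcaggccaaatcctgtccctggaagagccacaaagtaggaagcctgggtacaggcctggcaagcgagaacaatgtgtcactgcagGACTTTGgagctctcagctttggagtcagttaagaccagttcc
C4BPA: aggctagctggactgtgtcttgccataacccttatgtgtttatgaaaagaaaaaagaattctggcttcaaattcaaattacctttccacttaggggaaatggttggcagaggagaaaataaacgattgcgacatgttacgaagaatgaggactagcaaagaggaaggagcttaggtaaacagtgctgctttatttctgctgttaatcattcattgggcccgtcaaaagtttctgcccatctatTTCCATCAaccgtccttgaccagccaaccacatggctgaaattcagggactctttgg

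The 9 motifs searched were simple consensus forms, matched exactly on both strands of the 300-base windows. Over 27305 promoters with 1 window per gene symbol, the AP-1 form TGANTCA was in 7.76%, the EGR1 form GCGGGGGCG in 5.02%, the NF-kB form GGGNNTTCC in 6.60%, the ETS form CCGGAAGT in 4.44%, the AhR form TTGCGTG in 1.15% and the ATF4 form TGATGNAA in 3.67%. For the liver factors, the HNF4 forms CAAAGTC and CAAAGGTCA were in 3.43% and 0.410% of promoters, and the C/EBP form TTGCNNCAA in 2.02%. Windows were found for 27 of the 34 members. In the F3 window, which is 77.3% G or C, the AP-1 form matched at -223 and -210 and the EGR1 form at -82, counted in bases from the start site to the leftmost base of the match as written. The F10 window held the first HNF4 form at 0, beginning at the start site, on the opposite strand. The C4BPB window held the same form at 7, also on the opposite strand. The C4BPA window held the ATF4 form at -7 on the opposite strand. Of the other members, VTN had the second HNF4 form at -98. These matches describe letters in the windows, and factor binding was not measured.

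Of the 34 members, 15 rose after fostamatinib and 8 fell, and 11 did not pass the test (limma on the deposited log2 CPM, Benjamini-Hochberg adjusted p under 0.05 over all 16305 genes). Across all genes 47.8% passed, 23.3% higher and 24.5% lower. These shares are the background for each count of calls by role or list below. A change over 2-fold was found for 7 members, all of them higher (F5, F10, SERPIND1, SERPINF2, MBL2, C6 and C8G), against 3.85% of all genes higher and 3.29% lower by this rule. The groups did not overlap in 25 of the 34 members, against 54.1% of all genes. The median log2 fold change of the members was 0.087, with a range from -0.87 to 3.18, and that of all genes was 0.0015. The median absolute log2 fold change was 0.42 for the members and 0.27 for all genes. The plot of each sample's value by role shows where the rises and falls lay. In bulk RNA, fewer cells that express a gene and less of its RNA per cell cannot be told apart.

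**Figure D1:**
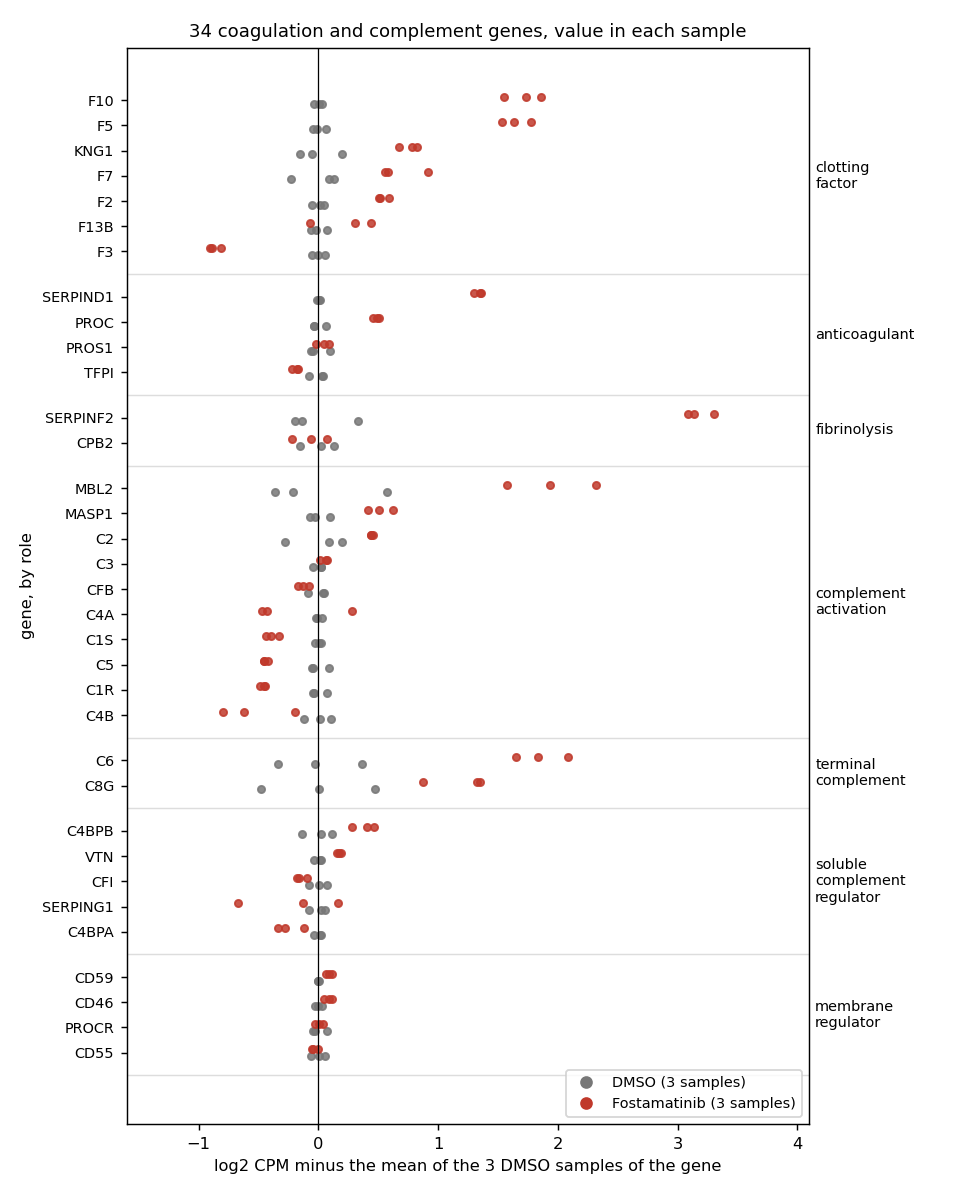
Value of each of the 34 members in each sample, as log2 CPM minus the gene's mean over the 3 DMSO samples (x axis), with genes grouped by role (y axis) and grey points for DMSO and red points for fostamatinib. SERPINF2 lies farthest to the right, F3 is the lowest clotting factor, and the 4 membrane regulators lie close to 0 in all 6 samples.

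The 6 samples had 13303451 to 15272737 reads on the listed genes, as recovered from the deposited values. Chi-square per degree of freedom was 1.65 to 3.74 between replicates, where counting error alone gives about 1, and 39.8 to 44.5 across the groups. The 7 hepatocyte markers examined (ALB, AFP, APOA1, APOB, TTR, TF and HNF4A) were all found and all 7 rose, with a summed level of 4115 to 4387 CPM in DMSO and 5292 to 5628 CPM in fostamatinib samples. HNF4A, a nuclear receptor that drives hepatocyte genes, rose by a log2 fold change of 1.02. For cell types that a pure line should lack, 1 of 7 endothelial markers was found (PECAM1, 6.13 to 6.96 CPM in DMSO and 8.76 to 9.93 CPM in fostamatinib samples), and 1 of 6 macrophage markers (CD14, at most 0.526 CPM in any sample). Of the stellate cell markers 3 of 6 were found, with sums of 148 to 153 CPM and 191 to 198 CPM, and of the cholangiocyte markers 5 of 5, with sums of 283 to 297 CPM and 330 to 338 CPM. Most reads of the stellate sum were those of COL1A2, which rose by 0.37 on the log2 scale. PDGFRB, with a mean of 32 reads in DMSO and 58 in fostamatinib samples, rose by 0.95, and COL1A1 (0.18) did not pass the test. Most reads of the cholangiocyte sum were those of KRT19, which rose by 0.25 on the log2 scale, as EPCAM did by 0.17, while SOX9 fell by 0.47 (limma adjusted p = 1.59e-05) and KRT7 (-0.48) and CFTR (0.70) did not pass the test. The part of these shifts in the results below was not tested.

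Among the clotting factors, 5 of the 7 found rose, F3 alone fell and F13B did not pass the test, with a median log2 fold change of 0.69. F10, the protease that joins both arms of the cascade and forms the prothrombinase, had 76, 88 and 84 reads in DMSO samples and 228, 269 and 272 reads in fostamatinib samples. The groups were far apart, with the fostamatinib samples all above the DMSO samples. Mean levels were 2.51 ± 0.032 log2 CPM and 4.22 ± 0.155 log2 CPM (SD, n = 3 each). The log2 fold change was 1.71 (standard error 0.11, limma adjusted p = 2.94e-15). F5, the cofactor of factor X in that complex, had 131, 138 and 131 reads in DMSO and 365, 405 and 414 reads in fostamatinib samples. Its log2 fold change was 1.65 (standard error 0.091, limma adjusted p = 3.13e-17), close in size to that of F10. The rises of the other 3 were smaller, 0.54 for F2 (prothrombin), 0.69 for F7 and 0.76 for KNG1, the kininogen of the contact system.

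F2 was the clotting factor with the highest level per length in the DMSO samples, at 30.1 FPKM (deposited CPM per kilobase of annotated exon). It lay at 6.20, 6.30 and 6.27 log2 CPM in DMSO and at 6.77, 6.85 and 6.77 in fostamatinib samples, with no overlap (limma adjusted p = 1.48e-11). F7, the partner of tissue factor, had 60, 83 and 83 reads in DMSO and 105, 107 and 128 reads in fostamatinib samples (limma adjusted p = 0.000144), so its lowest treated sample was above its highest control. KNG1 had 60, 62 and 77 reads against 99, 111 and 106 (limma adjusted p = 3.65e-05). F13B, the carrier subunit of factor XIII, had only 12 to 18 reads in any sample (log2 fold change 0.23, standard error 0.32, limma adjusted p = 0.591).

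F3 moved the other way. Tissue factor is a membrane protein and, unlike the other clotting factors, is made by many cell types outside the liver. It had 1008, 1080 and 1133 reads in DMSO samples and 544, 595 and 518 reads in fostamatinib samples. Every treated sample was well under every control, with mean levels of 6.20 ± 0.054 log2 CPM and 5.33 ± 0.051 log2 CPM (SD, n = 3 each). The log2 fold change was -0.87 (standard error 0.057, limma adjusted p = 2.97e-15), a level 0.547 times that of DMSO. It lay between -0.90 and -0.84 when each sample was left out in turn. TFPI, which inhibits the complex of tissue factor and factor VII, fell by 0.19 on the log2 scale (standard error 0.049, limma adjusted p = 0.00175), from 1381, 1411 and 1480 reads to 1184, 1237 and 1110. The ratio of F3 to TFPI per length was 2.96, 3.11 and 3.11 in DMSO samples and 1.87, 1.95 and 1.90 in fostamatinib samples. Its size depends on the annotated exon lengths, 2886 bases for F3 and 11714 for TFPI, but its fold change between groups does not. The ratios of the groups did not overlap (exact permutation test, two-sided p = 0.10, the least possible here, adjusted 0.125 over the 5 ratios tested).

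Of the 4 anticoagulant genes found, SERPIND1 and PROC rose, TFPI fell and PROS1 did not pass the test. SERPIND1, which encodes the thrombin inhibitor heparin cofactor II, had 132, 148 and 145 reads in DMSO and 329, 355 and 328 reads in fostamatinib samples. Replicates were close, and the groups were far apart (log2 fold change 1.34, standard error 0.089, limma adjusted p = 5.62e-15). SERPIND1 lies inside PI4KA, which is on the opposite strand and shares no annotated exon base with it, and PI4KA had a log2 fold change of 0.17. PROC, the zymogen of protein C, had 155, 160 and 156 reads against 208, 218 and 195 (log2 fold change 0.49, limma adjusted p = 8.20e-05). PROS1, the cofactor protein S, had the highest level of this role per length, 70.2 FPKM in DMSO and 72.2 FPKM in fostamatinib samples, and its groups overlapped. Its log2 fold change was 0.041 (standard error 0.041, limma adjusted p = 0.437), and without DMSO replicate 3 it was 0.091 with an adjusted p of 0.0413. Protein C and protein S are vitamin K-dependent, as are prothrombin and factors VII and X. Of these 5 genes 4 rose, against 23.3% of all genes, and the vitamin K-dependent member F9 was not found. A difference between these genes and all genes was not tested.

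The largest change of any member was that of SERPINF2, which encodes alpha-2-antiplasmin, the main plasma inhibitor of plasmin. It had 176, 135 and 137 reads in DMSO samples and 1190, 1278 and 1334 reads in fostamatinib samples. DMSO replicate 1 stood above the other controls, and the treated samples were all far above the controls. Mean levels were 3.35 ± 0.290 log2 CPM in DMSO and 6.53 ± 0.114 log2 CPM in fostamatinib samples (SD, n = 3 each). The log2 fold change was 3.18 (standard error 0.091, limma adjusted p = 2.76e-25), or 9.06-fold. In limma without a mean-variance trend the adjusted p was 0.000301. The log2 fold change lay between 3.08 and 3.35 when each sample was left out in turn. Per length it went from 4.34 FPKM, at the 53.3 percentile of all genes in DMSO samples, to 39.3 FPKM. CPB2, whose product (TAFI) also slows fibrinolysis, had 72, 90 and 95 reads against 84, 71 and 74, with overlapping groups and a log2 fold change of -0.070 (limma adjusted p = 0.722).

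Among the genes of complement activation, 2 of the 10 found rose, 4 fell and 4 did not pass the test. The 2 were MASP1 and MBL2, and MBL2 was listed only through its fostamatinib samples. The median log2 fold change was -0.17, midway between CFB (-0.13) and C4A (-0.21), neither of which passed the test. The median moved to -0.0996 without fostamatinib replicate 1, -0.28 without replicate 2 and -0.10 without replicate 3. C1R and C1S, the proteases of the C1 complex, both fell. C1R had 664, 796 and 720 reads in DMSO and 498, 504 and 481 reads in fostamatinib samples (log2 fold change -0.46, standard error 0.061, limma adjusted p = 6.91e-08). C1S had 1716, 1851 and 1872 reads against 1295, 1403 and 1215 (log2 fold change -0.39, standard error 0.046, limma adjusted p = 1.01e-08). For each gene all treated samples were under all controls. C5, whose cleavage opens the terminal pathway, fell by about as much, from 3714, 4091 and 4389 reads to 2784, 2950 and 2682 (log2 fold change -0.44, standard error 0.041, limma adjusted p = 3.05e-11). C5 shares 408 exon bases with CNTRL on the opposite strand, which had a log2 fold change of 0.54, and without the strand setting of the counting their reads there cannot be told apart.

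C3, the point at which the 3 pathways meet, was the member with the highest level per length, 141 FPKM in DMSO and 146 FPKM in fostamatinib samples. Its values were 10.62, 10.69 and 10.69 log2 CPM in DMSO and 10.69, 10.74 and 10.74 in fostamatinib samples. The log2 fold change was 0.053 (standard error 0.032, limma adjusted p = 0.173), and in the 6 fits that left out 1 sample it was at most 0.071. The ratio of C5 to C3 per length was 0.117, 0.111 and 0.123 in DMSO and 0.0842, 0.0828 and 0.0814 in fostamatinib samples (exact permutation test, two-sided p = 0.10, adjusted 0.125). A transcript with no symbol in the files (ENSG00000276980), annotated as a lncRNA on the same strand, shares 1357 exon bases with C3, and it fell from a mean of 205 reads to 51.0 reads (log2 fold change -1.90).

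Of the lectin pathway genes found, MASP1 was higher after fostamatinib, and MBL2 was listed only through its fostamatinib samples. MASP1, a protease of that pathway, had 551, 666 and 578 reads in DMSO and 798, 773 and 832 reads in fostamatinib samples (log2 fold change 0.51, standard error 0.063, limma adjusted p = 1.56e-08). MBL2, mannose-binding lectin, had 3, 3 and 6 reads against 15, 12 and 19 (log2 fold change 1.94, standard error 0.45, limma adjusted p = 0.000417). MBL2 passed the authors' filter only through the fostamatinib group, so a difference was required for it to be listed. Its p-value therefore gives no support for a rise. CFB, of the alternative pathway, had 154 to 172 reads in DMSO and 133 to 148 reads in fostamatinib samples (limma adjusted p = 0.349), and its neighbour C2 had 27 to 36 and 40 to 43 reads. The log2 fold change of C2 was 0.45 (limma adjusted p = 0.0808), and its adjusted p was 0.0461 in limma without a mean-variance trend.

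The reads of C4A and C4B cannot be assigned with certainty. Of the 50-base windows in the annotated C4A transcripts, 94.5% occur exactly in a C4B transcript. C4A had 43, 46 and 45 reads in DMSO and 31, 53 and 29 reads in fostamatinib samples (limma adjusted p = 0.450), and C4B had 53, 55 and 49 against 43, 33 and 27. C4B passed the test with a log2 fold change of -0.54 (limma adjusted p = 0.0285), but not without DMSO replicate 1 (-0.48, adjusted p = 0.0944), DMSO replicate 2 (-0.53, 0.0663), fostamatinib replicate 2 (-0.49, 0.0766) or fostamatinib replicate 3 (-0.40, 0.134). In limma without a mean-variance trend its adjusted p was 0.0572. Summed over both genes there were 96, 101 and 94 reads in DMSO and 74, 86 and 56 reads in fostamatinib samples. The groups of the sum did not overlap, with a log2 difference of -0.36 (two-sided exact permutation p = 0.10). Of the 5 ratios tested, that of C4B to C4A per length was 1.23, 1.19 and 1.09 in DMSO and 1.38, 0.625 and 0.930 in fostamatinib samples. Its groups overlapped (exact permutation test, two-sided p = 0.40, adjusted 0.40).

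Both terminal complement genes found rose, from low levels. C6 had 9, 8 and 13 reads in DMSO samples and 34, 31 and 39 reads in fostamatinib samples (log2 fold change 1.86, standard error 0.30, limma adjusted p = 2.40e-06). C8G, the gamma subunit of C8, had 5, 8 and 11 reads against 19, 14 and 18 (log2 fold change 1.18, standard error 0.37, limma adjusted p = 0.00859). The groups did not overlap for either gene. Since 0.5 was added to each count before the log was taken, fold changes of genes with so few reads are understated, and their standard errors are several times those of the abundant members. With C8A, C8B and C9 not analysed here, these 2 genes do not describe the terminal pathway as a whole.

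The soluble complement regulators were split, with C4BPB and VTN higher, C4BPA and CFI lower and SERPING1 not past the test. C4BPA and C4BPB encode the alpha and beta chains of C4b-binding protein, and the beta chain is the one that carries protein S. The genes are neighbours on chromosome 1 of GRCh37, where C4BPB ends 4239 bases before C4BPA starts on the same strand, and no 50-base window of the C4BPA transcripts occurs in C4BPB. C4BPB had 424, 420 and 489 reads in DMSO and 576, 524 and 534 reads in fostamatinib samples, a log2 fold change of 0.38 (standard error 0.071, limma adjusted p = 2.65e-05). C4BPA had 228, 263 and 255 reads against 185, 199 and 207, a log2 fold change of -0.25 (standard error 0.091, limma adjusted p = 0.0255). The call of C4BPA was lost without DMSO replicate 2 (-0.23, adjusted p = 0.0650), fostamatinib replicate 1 (-0.20, 0.110) or fostamatinib replicate 2 (-0.23, 0.0778). The ratio of C4BPB to C4BPA per length was 1.43, 1.23 and 1.48 in DMSO and 2.40, 2.03 and 1.99 in fostamatinib samples. Every treated ratio was above every control (exact permutation test, two-sided p = 0.10, adjusted 0.125).

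**Figure D2:**
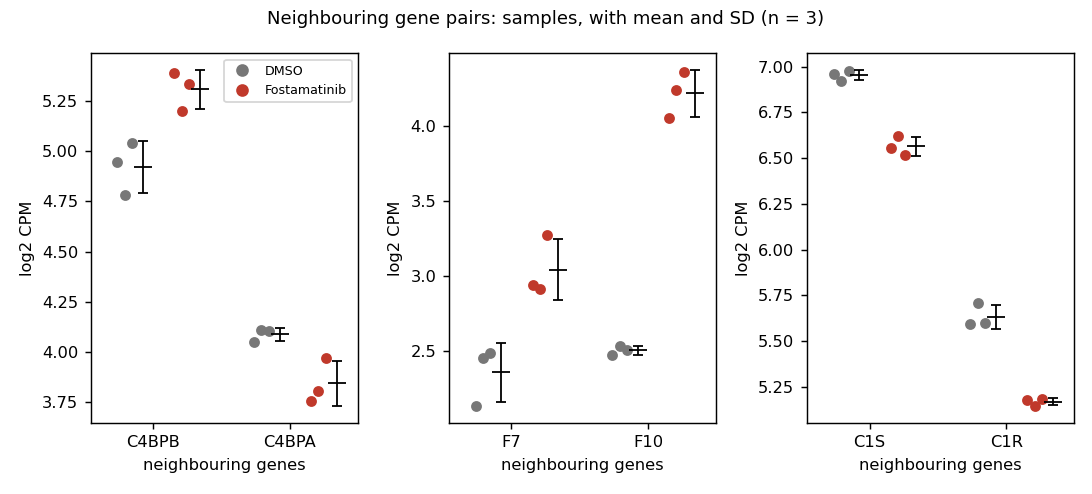
Log2 CPM (y axis) of 3 pairs of genes that lie next to each other in the genome, with 1 point per sample, grey for DMSO and red for fostamatinib, and the mean and SD of 3 samples in black. C4BPB is higher and C4BPA lower after fostamatinib, F7 and F10 are both higher, with log2 fold changes of 0.69 and 1.71, and C1S and C1R are both lower.

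Of the other neighbours, F7 ends 2113 bases before F10 starts on chromosome 13 of GRCh37, and both rose, unequally. The ratio of F10 to F7 per length was 2.03, 1.70 and 1.62 in DMSO and 3.47, 4.02 and 3.40 in fostamatinib samples (exact permutation test, two-sided p = 0.10, adjusted 0.125). C1S and C1R lie on opposite strands of chromosome 12 and fell by similar amounts. C1RL, a related protease gene that shares 672 exon bases with C1R, had 452, 493 and 491 reads in DMSO and 442, 516 and 503 reads in fostamatinib samples, with a log2 fold change of 0.11 (limma adjusted p = 0.187).

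VTN, vitronectin, which keeps the attack complex out of membranes, was the most abundant soluble regulator per length, at 96.3 FPKM in DMSO and 109 FPKM in fostamatinib samples. Its reads were 2557, 2829 and 2658 against 2816, 2941 and 2772, a log2 fold change of 0.17 (standard error 0.040, limma adjusted p = 0.000427). CFI, the protease that cuts C3b and C4b, had 2244, 2644 and 2686 reads against 2092, 2301 and 2036, a log2 fold change of -0.14 (standard error 0.044, limma adjusted p = 0.00692), and an adjusted p of 0.106 in limma without a mean-variance trend. SERPING1, the C1 inhibitor, had 3 to 6 reads in every sample and a log2 fold change of -0.21 with a standard error of 0.52, so a change of this size was not detectable at this depth. The median log2 fold change of the role was -0.14 and became 0.022 without fostamatinib replicate 3, in which SERPING1 had 3 reads.

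The membrane regulators moved least, with a range of log2 fold changes from -0.031 to 0.090 and a median of 0.044. CD59, which blocks the last step of the attack complex, lay at 8.12, 8.12 and 8.13 log2 CPM in DMSO and at 8.19, 8.24 and 8.21 in fostamatinib samples. The groups did not overlap, and the log2 fold change of 0.090 (standard error 0.037) had a limma adjusted p of 0.0435. CD59 did not pass without DMSO replicate 1 (0.088, adjusted p = 0.105), DMSO replicate 2 (0.0895, 0.0720), or fostamatinib replicate 1 (0.10, 0.0504), 2 (0.077, 0.172) or 3 (0.092, 0.0854). Nor did it pass in limma without a mean-variance trend (adjusted p = 0.132) or with library size alone as the scaling (0.0746). CD46, a cofactor for factor I, was at 7.78, 7.75 and 7.81 log2 CPM against 7.83, 7.87 and 7.90 (log2 fold change 0.084, limma adjusted p = 0.0761), and without DMSO replicate 3 it passed the test (0.10, adjusted p = 0.0316). CD55, which takes C3 convertases apart, had a log2 fold change of -0.031 (standard error 0.045) and PROCR, the receptor of protein C, one of 0.0038 (standard error 0.080), with overlapping groups for both. In linear terms the fitted levels of these 4 genes after fostamatinib were 0.979 to 1.06 times those in DMSO.

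**Figure D3:**
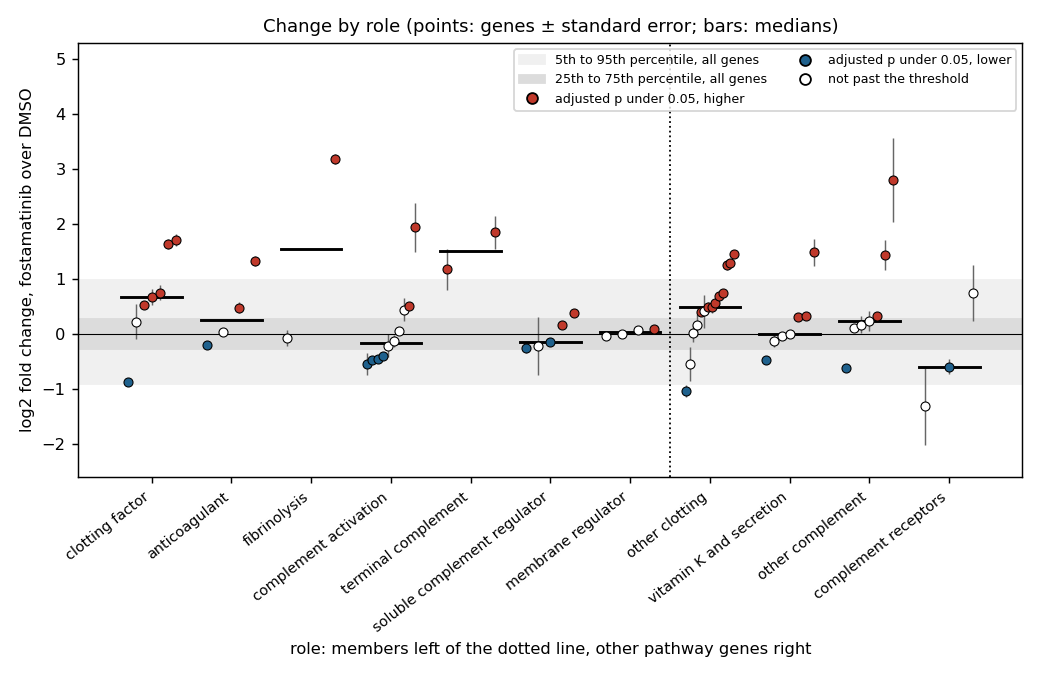
Log2 fold change of fostamatinib over DMSO (y axis) for each gene by role (x axis), as points with the standard error (red past the test and higher, blue past it and lower, white not past it), with bars at the medians, grey bands for the central ranges of all genes, and the other pathway genes to the right of the dotted line. Clotting factors have a median of 0.69, complement activation genes of -0.17 and membrane regulators of 0.044, against 0.0015 for all genes.

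Set side by side, the 13 clotting, anticoagulant and fibrinolysis members had 8 genes higher, 2 lower and 3 not past the test, with a median log2 fold change of 0.54. Across all genes 23.3% were higher and 24.5% lower. The 17 complement factors, from activation through terminal genes and soluble regulators, had 6 higher, 6 lower and 5 not past the test, with a median of -0.13. The 6 higher include MBL2, listed only through its fostamatinib samples. The 6 lower include C4B, whose reads cannot be assigned with certainty. The 4 membrane regulators had 1 higher and 3 not past the test. These are descriptions of the lists, and the difference between the lists was not tested. The summed level of the 7 clotting factors was 172 to 180 CPM in DMSO and 208 to 221 CPM in fostamatinib samples. That of the 10 complement activation genes, mostly C3 reads, was 2082 to 2178 CPM and 2058 to 2129 CPM, with overlapping groups.

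The level per length in the DMSO samples ranged from 0.0581 FPKM for SERPING1 to 141 FPKM for C3. The members that rose more than 2-fold began at 4.34 FPKM or less, and the 3 most abundant members, C3, VTN and PROS1, had log2 fold changes between 0.041 and 0.17. MBL2, among those over 2-fold, had too few reads in DMSO samples to pass the authors' filter through them. Across the 34 genes the correlation of log2 FPKM in DMSO with the log2 fold change was weak (Pearson r = -0.35, Spearman rho = -0.31). The points share the same 6 libraries, and the DMSO level enters both measures, so it is given as a description. The 9 members under 100 reads in both groups included 3 that rose, 1 that fell and 5 that did not pass the test, against 12, 7 and 6 of the 25 members with more reads. The 3 that rose include MBL2, listed only through its fostamatinib samples. The 1 that fell is C4B, whose reads cannot be assigned with certainty.

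**Figure D4:**
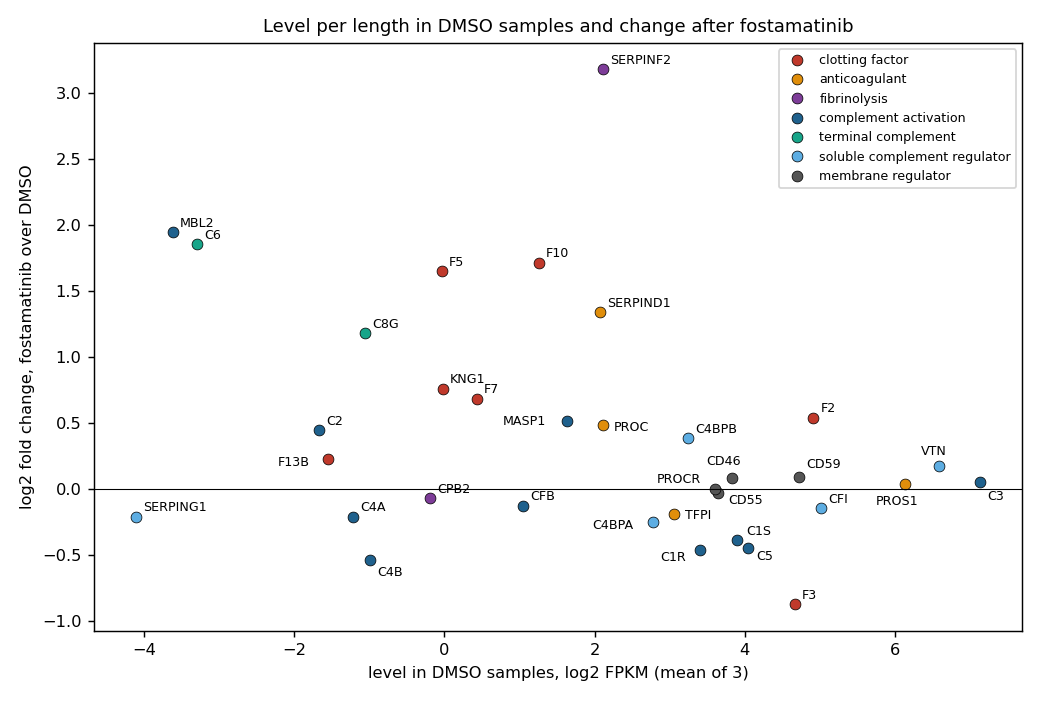
Log2 fold change of fostamatinib over DMSO (y axis) against the level in DMSO samples in log2 FPKM, mean of 3 (x axis), with 1 point per member and colours for roles. SERPINF2 stands highest at 3.18, F3 is the lowest point at -0.87, and C3, VTN and PROS1 at the right lie near 0.

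Other genes of the same pathways were read from a second list of 57, of which 31 were found. Of these, 15 rose, 4 fell and 12 did not pass the test, with a median log2 fold change of 0.33. Over 2-fold rises were those of FGA, A2M, SERPINA5, HPN and COLEC12, and of CPN2, which passed the authors' filter only through the fostamatinib group and so had to differ to be listed. FGA, the alpha chain of fibrinogen, had 10231, 12413 and 12291 reads in DMSO and 25998, 28472 and 25695 reads in fostamatinib samples, a log2 fold change of 1.29 (standard error 0.036, limma adjusted p = 1.17e-25). The other chains, FGB and FGG, rose by less, 0.74 and 0.69 on the log2 scale. A2M, a broad protease inhibitor of plasma, rose by 1.45, SERPINA5, the protein C inhibitor, by 1.26 and HPN, the membrane protease hepsin, by 1.49. HPN had few reads, 14, 17 and 27 in DMSO and 50, 51 and 49 in fostamatinib samples (standard error 0.24). COLEC12, a collectin, had 10, 13 and 18 reads against 37, 33 and 34, and CPN2, the regulatory subunit of carboxypeptidase N, had 1, 0 and 1 reads against 6, 7 and 6.

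PLAUR, the urokinase receptor, was the one fall over 2-fold in that list. It had 285, 334 and 247 reads in DMSO and 138, 151 and 109 reads in fostamatinib samples (log2 fold change -1.03, standard error 0.11, limma adjusted p = 6.69e-10), with no overlap. C1QBP, which binds the globular heads of C1q, fell by 0.61 on the log2 scale. Of the genes for vitamin K use and secretion of clotting factors, GGCX, the gamma-carboxylase, rose by 0.33 and FURIN by 0.32, VKORC1L1 fell by 0.46, and VKORC1, LMAN1 and MCFD2 did not pass the test. The thrombin and protease receptors F2R and F2RL1 rose by 0.41 and 0.57, and F2RL2, of the same family, did not pass the test (log2 fold change 0.16, limma adjusted p = 0.526).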

How the data were processed

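RNA-seq data of 3 DMSO and 3 fostamatinib samples of Huh7-R cells were used, with groups and replicate numbers from the sample labels. The authors aligned reads with HISAT to hg19, assigned them to GENCODE genes with featureCounts, filtered genes with few reads and normalized with the TMM method. Libraries were poly(A)-selected and directional, and the strand setting of the counting is not given in the sources used here. The deposited values are log2 CPM, with 0.5 added to each count. Reads were recovered from them, and 100% of the values lay within 0.05 of a whole number. The depth was 13303451 to 15272737 reads, and genes removed by the filter are not included. A gene with repeated, equal rows was used once, leaving 16305 genes.

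Linear models of log2 CPM over all genes used limma 3.58.1 (R 4.3.3, lmFit and trended eBayes, treatment as the single term), with Benjamini-Hochberg adjustment and a threshold of 0.05. With 3 samples per group, an exact permutation test cannot give a p-value below 0.10. FPKM was computed as deposited CPM per kilobase of the union of exons in GENCODE version 44 on GRCh37, the build of hg19, and means are geometric. The paper counted reads on an earlier GENCODE version. Levels and ratios per length between genes depend on the annotated lengths, while fold changes between groups do not. Promoters were taken from RefSeq. Some genes of the planned lists are not reported here. Python 3.11.15, numpy 2.4.6, pandas 2.3.3, scipy 1.17.1 and matplotlib 3.10.9 were used. The fit was tested on simulated data. The members, roles and lists were chosen with earlier results of these data known. Every member found is named. Values in each sample were planned for members past a log2 fold change of 1 and for the highest per length of each role, and for other members they were added after the values were seen. The motifs, printed promoters and ratios were likewise chosen after the values were seen.

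Alternatives were eBayes without a trend, limma-voom on recovered reads, median-ratio (RLE) size factors, library size alone, the 5-read filter in both groups, at least 10 reads in every sample, a replicate block, omission of each sample, an adjusted p under 0.01, and a 2-fold limit.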

Additional observations from a re-analysis of the deposited data

How the results depend on the processing

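The counts of members called, 15 higher and 8 lower, stayed within 1.5 times under every alternative but the 2-fold limit, which left 7 higher and 0 lower. The 15 and the 7 include MBL2, listed only through its fostamatinib samples. At the plain threshold limma-voom called 15 and 8. The same limit left 6 higher and 1 lower of the other pathway genes and 1163 of all genes. With single samples left out, the members called numbered 14 to 17 higher and 6 to 8 lower. Median log2 fold changes of roles then ranged from 0.57 (0.5682) to 0.75 for clotting factors, from -0.28 to -0.0996 for complement activation and from -0.18 to 0.022 for soluble regulators. Of 437 fold changes of members under the alternatives, 411 kept their direction and side of the threshold, 17 lost the call and 3 gained it. The other 6 changed sign, none of them past the threshold: PROCR at -0.0073 with library size alone and from -0.0168 to 0.0401 with samples left out, CPB2 from -0.15 to 0.0059 and SERPING1 from -0.40 to 0.022. The causes were not tested. RLE size factors moved the median of all genes by 0.0037 and library size alone by -0.011.

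Both groups carry replicate numbers 1 to 3, but the labels do not say that a number marks a shared culture or day. Residuals of samples with equal numbers, after group means were removed, correlated at 0.036, -0.021 and 0.037, and only replicate 1 correlated best with its own number. With the replicate block, 14 members were higher and 8 lower, 15 and 4 of the other pathway genes, and 7977 of all genes, and CD59 was the member no longer called (limma adjusted p = 0.0507). Depth limits genes such as SERPING1, MBL2 and C8G, with under 20 reads per sample.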
